A study of Mus musculus with 18 samples.

Results

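The 5 genes described here, S100a8, S100a9, Ngp, Camp and Ltf, encode proteins stored in neutrophils, and they were followed mouse by mouse in liver RNA. They are 5 of the 27845 gene names on the array and were chosen by name: every probe whose deposited gene name was one of the 5 was taken, which gave 6 of the 41174 probes that are not controls (Ltf has 2). The study measured the livers of 18 male CD-1 mice, an outbred stock, with 1 mouse per array on 1-colour Agilent arrays. From 5 weeks of age the mice ate a powdered, purified diet for 28 days and were 9 weeks old at sampling. The 3 groups of 6 mice differed in the bisphenol A mixed into that diet. The control diet held none (0 µg per kg body weight per day), the low dose was 50 µg per kg per day, which the labels call the TDI, and the high dose was 5000 µg per kg per day, which they call the NOAEL. Bisphenol A is a plastics monomer with weak estrogen activity, and the intake was set from an assumed food consumption.

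S100a8 and S100a9 are calcium-binding proteins that pair to form calprotectin, which binds zinc and manganese, makes up much of the neutrophil cytosol and can signal through the receptor Tlr4. Ngp (neutrophilic granule protein), Camp (cathelicidin, an antimicrobial peptide) and Ltf (lactoferrin, an iron-binding protein) are cargo of the specific granules, and their genes are transcribed mainly while neutrophils mature in the bone marrow. The liver holds neutrophils within its blood and sinusoids, and takes up more of them during inflammation.

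S100a8 and S100a9 are neighbours: their probes lay 22.75 kb apart on chromosome 3 of build mm8, at chr3:90755783-90755842 and chr3:90778590-90778649, and a RefSeq gene table placed 0 protein-coding gene starts between them. The other members lay on chromosome 9 of the same build. The Camp probe was at chr9:109704884-109704943, the Ngp probe, whose ends span 549 bases of genome, at chr9:110266929-110267477, and the Ltf probes at chr9:110880576-110883626, a span of 3051 bases, and chr9:110885185-110885244. The exon or intron under each probe was not determined. The promoters of S100a8, S100a9 and Camp are printed here because the first 2 belong to the pair that varied together across the mice and Camp was nearly silent outside 2 of them. Each window runs from 250 bases before to 50 after the start in RefSeq, build GRCm38.p6, written 5′ to 3′ on the strand of the gene. They are chr3:90668821-90669120 (plus strand), chr3:90695672-90695971 (minus strand) and chr9:109849407-109849706 (minus strand). Capitals mark GCAAT on either strand (ATTGC on the other), GAGGAA on either strand (TTCCTC on the other), and TATAAA on the strand of the gene.
S100a8 promoter: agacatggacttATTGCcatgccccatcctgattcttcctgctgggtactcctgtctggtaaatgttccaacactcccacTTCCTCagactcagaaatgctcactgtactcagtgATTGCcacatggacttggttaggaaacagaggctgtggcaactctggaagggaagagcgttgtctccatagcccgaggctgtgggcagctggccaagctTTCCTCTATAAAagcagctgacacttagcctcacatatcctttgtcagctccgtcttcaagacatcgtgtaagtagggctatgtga
S100a9 promoter: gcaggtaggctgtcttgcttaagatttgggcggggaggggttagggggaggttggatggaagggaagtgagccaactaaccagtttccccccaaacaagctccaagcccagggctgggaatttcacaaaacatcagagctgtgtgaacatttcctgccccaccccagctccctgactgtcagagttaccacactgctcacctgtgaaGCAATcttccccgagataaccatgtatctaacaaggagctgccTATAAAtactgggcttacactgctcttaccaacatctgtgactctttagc
Camp promoter: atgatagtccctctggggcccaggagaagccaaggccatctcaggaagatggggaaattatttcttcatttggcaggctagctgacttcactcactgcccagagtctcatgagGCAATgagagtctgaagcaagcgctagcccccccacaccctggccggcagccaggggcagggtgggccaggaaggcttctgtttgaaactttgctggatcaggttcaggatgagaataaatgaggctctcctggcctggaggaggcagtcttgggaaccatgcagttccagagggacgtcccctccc
GCAAT, the core of the sequence bound by C/EBP factors, was found in the windows of 5 of the 5 genes, 2 times each in S100a8 and Ltf and once each in S100a9, Ngp and Camp. Of all 32851 promoters in the table, 26.39% hold it. GAGGAA, the core bound by PU.1, was found 2 times in S100a8 and once in Ltf, and 28.28% of all promoters hold it. TATAAA stood in S100a8 and S100a9, once each, against 8.32% of all promoters, and in S100a8 it directly followed a TTCCTC without overlap. These are matches of letters and not measured sites.

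Signals are given as intensity in arbitrary units after background subtraction by the scanner software, or as a level, which is log2 of that intensity minus the 75th percentile of the same array. Agilent's software calls a spot well above background from its own noise, and a gene entered the model where its probe was so called on at least 6 of 18 arrays. S100a8, S100a9 and Ltf passed. Ngp was well above background on 3 arrays and Camp on 2, so that neither was tested in the main model. Of the markers of the labelled tissue, Alb, the serum albumin gene of hepatocytes, was saturated on all 18 arrays. The 75th percentile of intensity lay between 178.5 and 305.5 in controls, 228.0 and 351.0 at the low dose and 265.2 and 354.1 at the high dose. High-dose mouse 2, which stood apart in the results that follow, had a 75th percentile of 279.9 and 59.9% of spots well above background, inside the range of the other arrays. In bulk tissue, fewer cells of a type and less RNA per cell cannot be told apart, and this holds for every value here.

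All 5 genes were brightest in a single liver, that of high-dose mouse 2, and second brightest in low-dose mouse 1, in 6 of 6 probes. No member passed the test between groups. The plot of levels by mouse shows the 6 probes.

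**Figure D1:**
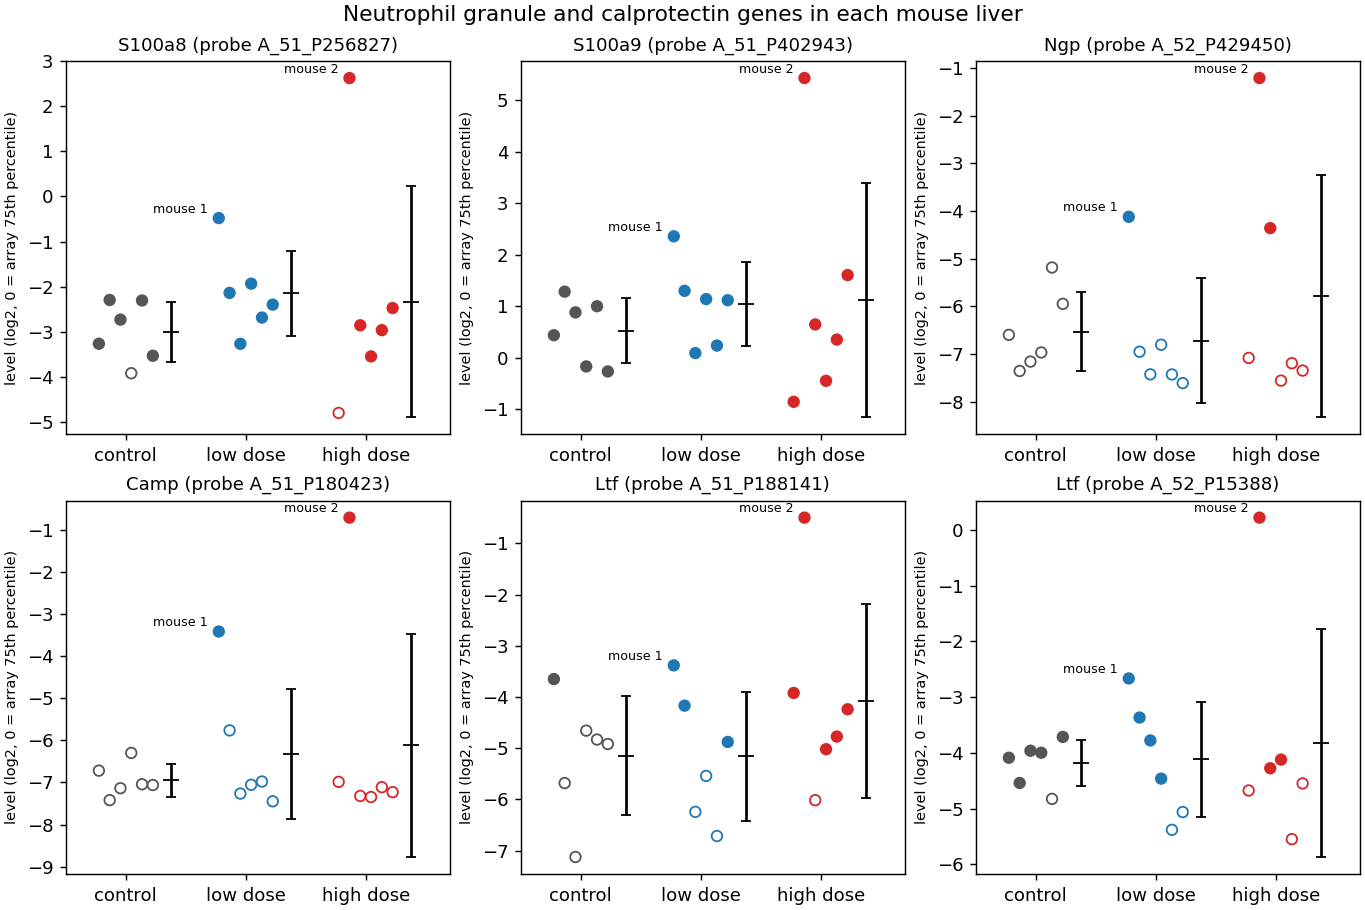
Levels (log2, 0 at the array's 75th percentile) of the 6 probes in each of 18 livers, 6 per group, with mean and SD beside each group. Filled points are well above background and open points are not. High-dose mouse 2 is the highest point in each panel and low-dose mouse 1 the next.

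S100a9 was measured above background on all 18 arrays. Its intensity in the 6 controls ran from 179.9 over a median of 328.8 to 744.0. At the low dose the lowest, median and highest values were 268.7, 635.9 and 1802, and at the high dose 170.2, 380.6 and 12111. The 3 groups overlapped, with the lowest and the highest value of all 18 both in the high-dose group. High-dose mouse 2 was 36.1-fold above the mean of the other 5 high-dose mice and 30.0-fold above the control mean. Low-dose mouse 1 was 3.00-fold above the mean of its 5 group mates.

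S100a8, the partner of S100a9, was dimmer, and its intensity in controls had a lowest, median and highest value of 13.3, 27.4 and 62.2. The low-dose mice gave 33.0, 63.4 and 251.7, and the high-dose mice 11.03, 35.5 and 1731. It was well above background in 5 controls, 6 low-dose and 5 high-dose mice, and again the groups overlapped. High-dose mouse 2 was 62.3-fold above the mean of the other high-dose mice and 49.8-fold above the control mean, and low-dose mouse 1 was 4.02-fold above the mean of the other low-dose mice.

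Camp was not well above background in 16 of 18 livers. Its intensity did not exceed 2.57 in any control and was not well above background there. It reached 33.0 in low-dose mouse 1 and 171.5 in high-dose mouse 2, while the next highest of the other mice was 5.40. Against the lowest signal called above background on the dim arrays, high-dose mouse 2 was at least 19.6-fold above the other high-dose mice and at least 18.3-fold above controls. Low-dose mouse 1 was at least 3.35-fold above the other low-dose mice.

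Ngp behaved in much the same way: 0 of 6 controls were well above background, with a highest intensity of 6.23. It was well above background in low-dose mouse 1 (20.2), in high-dose mouse 2 (120.8) and in high-dose mouse 3 (13.2). High-dose mouse 3 was thus the only liver besides these 2 with a measured Ngp signal, although its Camp intensity of 1.69 was not well above background. High-dose mouse 2 was at least 12.3-fold above the other high-dose mice and at least 12.9-fold above controls. For both Camp and Ngp the group means lay at or under the lowest detectable signal of the controls, so no fold is given between groups for these genes.

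The brighter kept probe of Ltf, A_52_P15388, was well above background in 5 control, 4 low-dose and 3 high-dose mice and gave a lowest, median and highest intensity of 7.99, 12.9 and 18.5 in controls. The values were 5.48, 17.6 and 55.3 at the low dose and 5.67, 12.997 and 325.5 at the high dose. High-dose mouse 2 was 28.9-fold above the mean of the other high-dose mice, and low-dose mouse 1 was 3.35-fold above its group mates. Some of those group mates were not well above background. Against the lowest signal called above background, the folds were at least 26.2 and 3.25. On the other probe, A_51_P188141, the same 2 mice were highest, at 198.2 and 33.6. That probe was well above background in 1 control, 3 low-dose and 5 high-dose mice, the opposite order of the main probe.

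Outside these 2 livers the order of the mice was not shared by all members. The third highest S100a8 level was that of low-dose mouse 4 (-1.94) and the third highest S100a9 level that of high-dose mouse 6 (1.61). Control mouse 2 had the highest S100a8 and S100a9 of the controls and ranked 5 of 18 on both, but it ranked 12 on the main Ltf probe and was not well above background for Ngp or Camp. High-dose mouse 1 had the lowest S100a8 and S100a9 levels of all 18 livers, at -4.80 and -0.86.

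S100a8 and S100a9 varied together across the mice, as the plot of one against the other shows. Over 18 mice Pearson's r was 0.98 and Spearman's rho 0.93 (permutation p = 1e-05 each, the smallest that 100000 permutations can give, adjusted over 10 pairs of members to 0.0001, 2-sided). Without high-dose mouse 2 and low-dose mouse 1, the highest and second highest livers on both genes, r was 0.91 over 16 mice. It was 0.98 with group means subtracted and 0.97 with slide means subtracted, where arrays with the same scan time were taken as 1 slide. With another background correction (normexp with an offset of 50) r was 0.775 and rho 0.35.

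**Figure D2:**
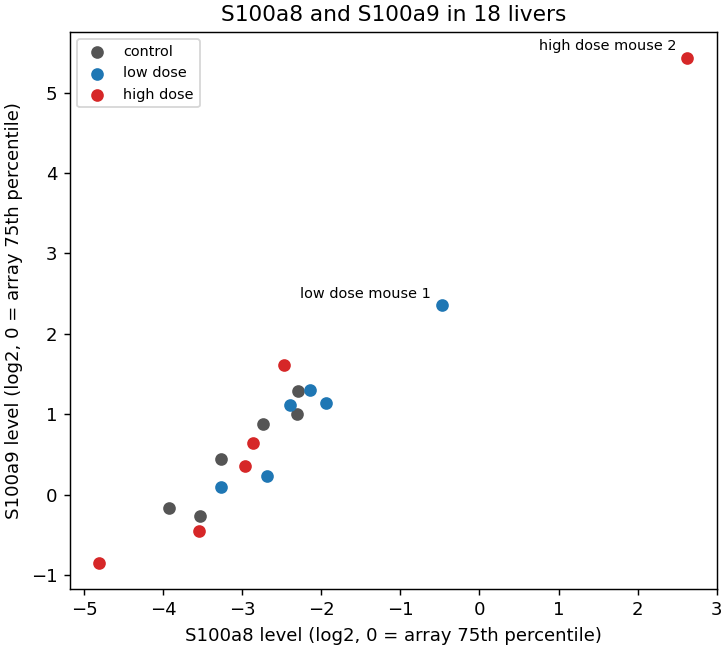
S100a9 level against S100a8 level (both log2, 0 at the array's 75th percentile) in 18 livers, coloured by group. The livers lie along 1 line (r = 0.98), with high-dose mouse 2 at the top right. Low-dose mouse 1 is second highest on both axes and the other 16 lie below it (r = 0.91).

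The relation of calprotectin to Ltf moved with the setting. S100a8 and Ltf had r = 0.77 and rho = 0.16 over 18 mice (permutation p = 0.00741 and 0.512, adjusted 0.00823 and 0.512), and r = -0.13 without the 2 mice. S100a9 and Ltf had r = 0.77 and rho = 0.23 (permutation p = 0.00839 and 0.353, adjusted 0.00839 and 0.442), and r = -0.07 without them (0.23 without the 2 livers farthest from the median of S100a9). With slide means subtracted, S100a8 and Ltf had r = 0.90 and rho = 0.63, and S100a9 and Ltf r = 0.92 and rho = 0.67 (permutation p for rho 0.0062 and 0.00306, adjusted 0.0140 each). With the 2 mice left out before the slide means were subtracted, a setting chosen after seeing the data, r was 0.51 for S100a8 and Ltf (permutation p = 0.0417, adjusted 0.139) and 0.68 for S100a9 and Ltf (permutation p = 0.00429, adjusted 0.0214). The permutations shuffled all mice freely and not within slides. Each p given after slide means were subtracted is therefore likely too small. With normexp r was 0.83 for S100a8 and Ltf, and 0.32 for S100a9 and Ltf. The r of these pairs thus rested on the 2 livers in the levels as measured. For S100a9 and Ltf with slide means subtracted, r stayed at 0.68 without them, but other measures were weaker. In that setting rho was 0.59 (permutation p = 0.0171, adjusted 0.0854). Its r was 0.43 without the 2 livers then farthest from the median of S100a9. The Ltf probe used was well above background on 12 of 18 arrays. Its order outside the 2 livers is thus partly that of background signal. Most Camp and Ngp values lay at background and have no order, so no relation is read from them.

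The first comparison asked whether the low dose changed the members. None of the 3 tested passed the threshold of 0.05 in limma with Benjamini-Hochberg adjustment over all genes, where 43 of 17689 genes (0.243%) did, and 0 of the 3 had an unadjusted p under 0.05. S100a8 had a mean level of -3.01 ± 0.67 in controls and -2.15 ± 0.94 at the low dose (SD, n = 6 each), a log2 fold change of 0.86 ± 0.88 (SE, limma adjusted p = 0.776). S100a9 had 0.53 ± 0.64 and 1.04 ± 0.82, a log2 fold change of 0.51 ± 0.78 (limma adjusted p = 0.865). Ltf had -4.19 ± 0.41 and -4.12 ± 1.04, a log2 fold change of 0.07 ± 0.73 (limma adjusted p = 0.982). The median of the 3 was 0.51, against -0.02 for all genes.

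For the high dose against control the question was the same, and the spread within the dosed group was far larger. Mean levels at the high dose were -2.34 ± 2.57 for S100a8, 1.12 ± 2.28 for S100a9 and -3.83 ± 2.04 for Ltf (SD, n = 6). The log2 fold changes over control were 0.67 ± 0.88, 0.59 ± 0.78 and 0.36 ± 0.73 (SE, limma adjusted p = 0.914, 0.914 and 0.949). None of the 3 was called, nor was any other of the 17689 genes (0%, with 1232 at an unadjusted p under 0.05), and 0 of the 3 had an unadjusted p under 0.05. The median of the 3 was 0.59, against -0.00 for all genes. The 95% interval for S100a8 ran from -1.18 to 2.52 and that for S100a9 from -1.05 to 2.24.

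Between the doses, the log2 fold change of high over low was -0.19 ± 0.88 for S100a8, 0.08 ± 0.78 for S100a9 and 0.29 ± 0.73 for Ltf (limma adjusted p = 0.979, 0.993 and 0.966). None was called, where 5 of 17688 genes (0.0283%) were, and 0 of the 3 had an unadjusted p under 0.05. By mean level the order of S100a8 was control, high dose, low dose, and that of S100a9 control, low dose, high dose. No neighbours in either order differed beyond their spread.

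A single liver decided the sign of high over control for the 3 tested members, on the probes used in the main model. Without high-dose mouse 2 the log2 fold change over control was -0.32 ± 0.48 for S100a8, -0.27 ± 0.46 for S100a9 and -0.45 ± 0.41 for Ltf (SE, limma adjusted p = 0.973, 0.974 and 0.954). High over low was then -1.18 ± 0.48 for S100a8 (unadjusted p = 0.0253, adjusted p = 0.447 in limma), -0.78 ± 0.46 for S100a9 and -0.51 ± 0.41 for Ltf. The standard error of S100a8 for low dose against control fell from 0.88 to 0.46 when this mouse was left out, with the log2 fold change itself at 0.86 in both fits. With low-dose mouse 1 left out too, low over control was 0.52 ± 0.40 for S100a8, 0.25 ± 0.42 for S100a9 and -0.22 ± 0.35 for Ltf, and none of the 3 was called in any comparison.

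**Figure D3:**
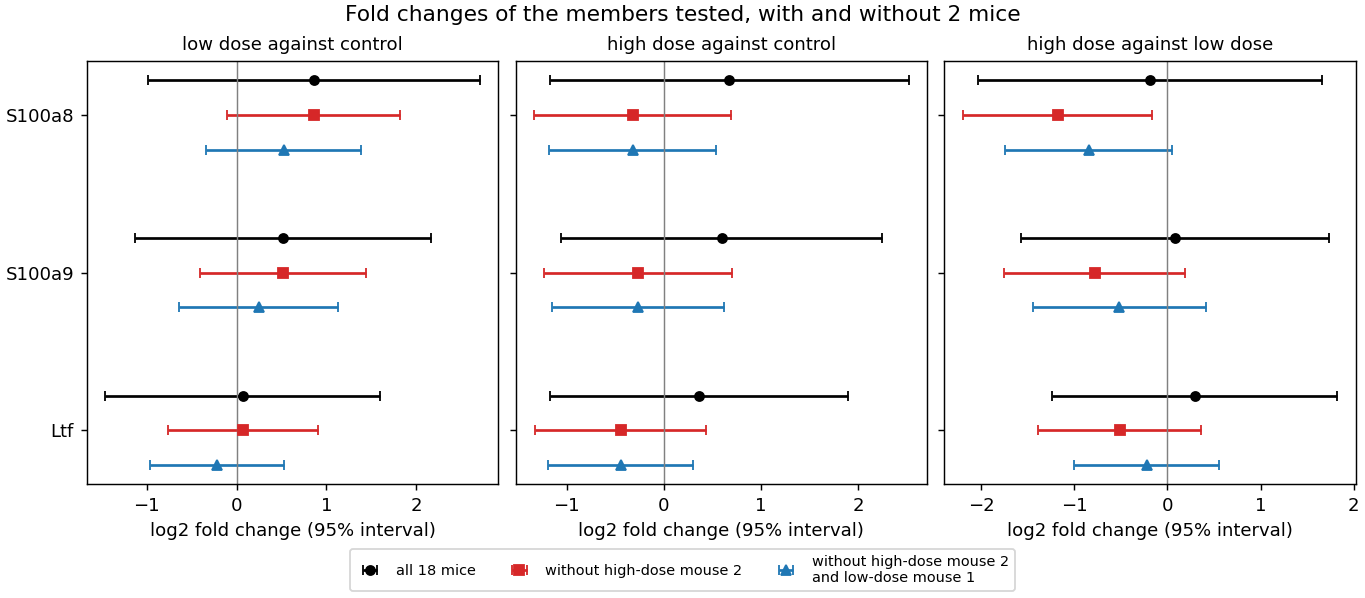
Log2 fold changes with 95% intervals for S100a8, S100a9 and Ltf in the 3 comparisons, from limma fits of all 18 mice, without high-dose mouse 2, and without that mouse and low-dose mouse 1. At the high dose the estimates move from above 0 (0.67, 0.59 and 0.36) to below it (-0.32, -0.27 and -0.45) when mouse 2 is left out, and the intervals narrow.

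Camp, Ngp and the second Ltf probe could be fitted when every probe was tested alone with no filter. High over control was then 1.07 ± 0.80 for Ltf probe A_51_P188141 (log2, SE, limma adjusted p = 0.765), and 0.35 without high-dose mouse 2. For Camp and Ngp, mostly background signal, only the limma adjusted p for high over control is given, 0.822 and 0.837. In this fit 0 of the 6 member probes passed in any comparison, against 0.0364%, 0% and 0.00972% of all probes in low over control, high over control and high over low.

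The arrays fell into 5 sets of 2 to 4 with the same scan time, all on 1 day. Each set was taken as a slide from that time alone. Both livers with the highest levels were on slide 5, together with control mouse 2 and low-dose mouse 5. Low-dose mouse 5 ranked 9 of 18 on S100a8 and 13 on S100a9, and it was not well above background for Ngp, Camp or Ltf. Within slide 5, high minus control was 4.93 for S100a8 and 4.15 for S100a9, from 1 mouse each. On the other slides with both groups it was -1.40, 0.47 and -0.41 for S100a8 and -0.94, 0.29 and -0.02 for S100a9. Low minus control within slides was 1.26, 1.39, -0.09 and 0.71 for S100a8 and 1.21, 0.78, 0.12 and 0.01 for S100a9. Fitted with the slide as a block, low over control was 0.57 for S100a8, 0.34 for S100a9 and -0.10 for Ltf, and that of high over control 0.70, 0.65 and 0.54. High over low was 0.12, 0.31 and 0.64 in that fit. The part of the slide in the levels of those livers was not tested.

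High-dose mouse 2 also differed from the other high-dose mice in many other genes of neutrophils, and since it was picked for its values the rest is description without a test. Among all 17690 genes ranked by its level minus the mean of the other 5 high-dose mice, S100a8 was 4th, S100a9 13th and Ltf 17th. In all, 243 genes (1.38%) were more than 2 higher on the log2 scale, and the median of all genes was -0.09. This mouse was the highest of 18 for 8.56% of all genes, where the 18 mice ranged from 2.36% to 9.85%.

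Azurophil granule proteins, made before the specific granules, were highest in this mouse in 3 of 3 measured genes. Mpo (myeloperoxidase) was 50.7-fold above the mean of the other high-dose mice, Prtn3 (proteinase 3) 7.58-fold and Ctsg (cathepsin G) 6.86-fold. Their summed level, in units of the array's 75th percentile, was 5.70, against 0.235 to 0.502 in controls, 0.189 to 0.771 at the low dose and at most 0.537 in the other high-dose mice. In low-dose mouse 1 this sum was 0.398 and ranked 11 of 18. Its Mpo level was the second highest of 18, but its Prtn3 level ranked 17.

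The other specific and gelatinase granule genes were highest in high-dose mouse 2 in 6 of 6 measured. Lcn2 (lipocalin 2, which binds bacterial iron carriers and is also made by stressed hepatocytes) was 244-fold above the other high-dose mice, Chil3 (a chitinase-like protein also made by macrophages) 13.9-fold and Lyz2 (lysozyme) 2.35-fold. Low-dose mouse 1 was second highest in 4 of these 6. Of 15 measured surface receptor and cytosolic genes, 11 were highest in high-dose mouse 2 and 15 were above the mean of the other high-dose mice, by a median of 1.47 on the log2 scale. Csf3r, the receptor of granulocyte colony-stimulating factor, was 2.88-fold higher, and the formyl peptide receptors Fpr1 and Fpr2, which sense bacterial peptides, 2.77-fold and 3.03-fold. The summed level of the 15 was 132.2 in this mouse and ranked 2 of 18. It ran from 74.2 to 101.5 in controls and reached 138.7 at the low dose, where low-dose mouse 1 ranked 7. That sum rests mostly on Wfdc21, chosen after its values were seen (level of 6.89 in high-dose mouse 2).

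Further neutrophil genes were too dim elsewhere to enter the model. Of 19 genes of these 3 lists that were on the array but did not pass, 13 were well above background in high-dose mouse 2 and 8 in no other mouse. Among all 10903 genes that did not pass, 3.49% were above background in this mouse and 1.36% only there. Examples chosen after their values were seen are Elane (neutrophil elastase), with an intensity of 22.7 against at most 4.16 on the other arrays, Mmp8 (neutrophil collagenase), with 70.5 against 5.40, Cxcr2 (a chemokine receptor), with 48.0 against 8.23, and Retnlg (a resistin-like protein), with 162.6 against 23.8.

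**Figure D4:**
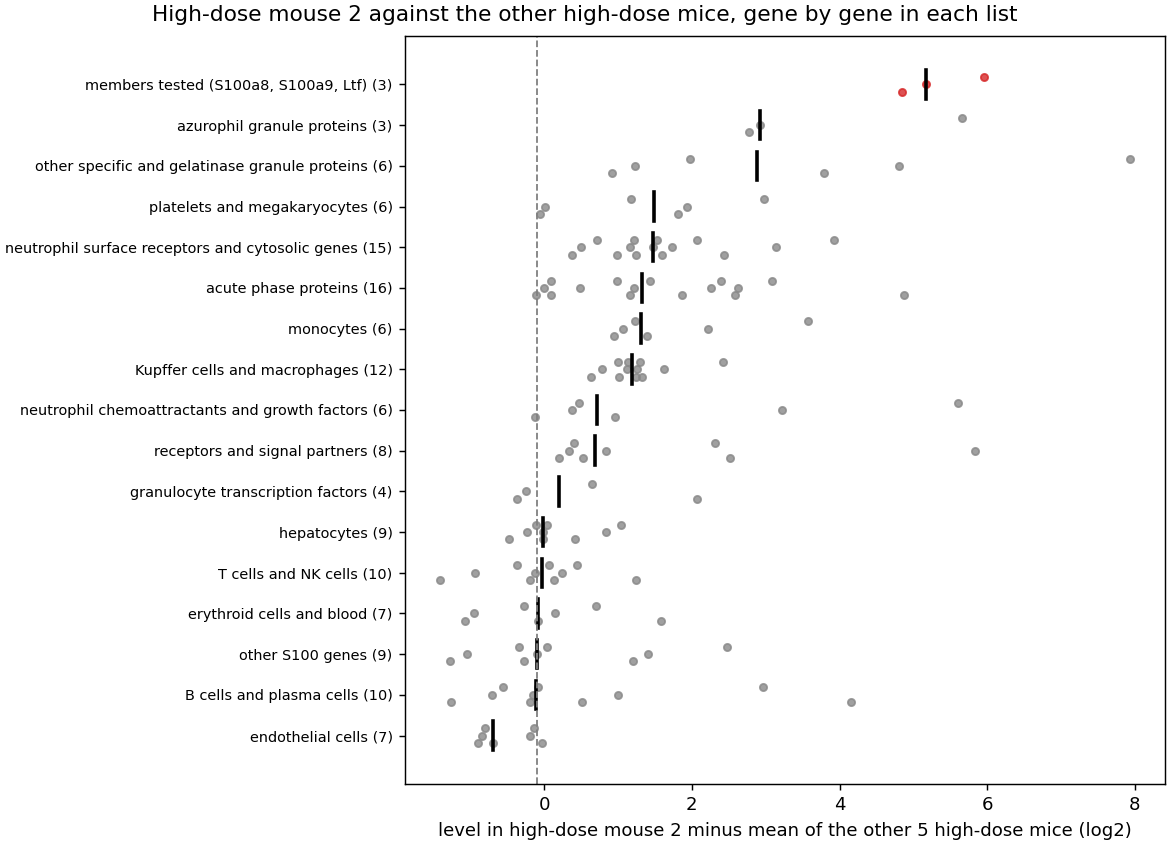
Each point is a gene, at its level in high-dose mouse 2 minus the mean of the other 5 high-dose mice (log2), grouped by list with the number measured in brackets. Black bars are list medians and the dashed line the median of all genes (-0.09). Of the acute phase and hepatocyte genes, 7 of 16 and 6 of 9 were never saturated. The 3 tested members (median 5.17) and the granule lists (2.92 and 2.88) lie farthest right and endothelial genes (-0.69) farthest left.

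The receptors and signal partners of these proteins were led by Cd14, the co-receptor of Tlr4, which was 56.8-fold above the other high-dose mice. Tlr4 itself was 1.78-fold and its partner Ly96 1.45-fold higher. Of the 8 measured, 5 were highest in this mouse. Among chemoattractants, Cxcl1, which draws neutrophils, was 48.5-fold higher, while Cxcl12, which holds them in the marrow, was 0.914 times and Ccl4 1.30-fold the mean of the other high-dose mice. Of the transcription factors, Cebpd was 4.21-fold and Cebpb 1.56-fold higher and Cebpa 0.847 times that mean. Cebpe, which drives the specific granule genes, had no probe matched by symbol.

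Other S100 genes went both ways. Of 9 measured, 3 were highest of 18 in high-dose mouse 2, against 8.56% of all genes, and the median difference was -0.10. These were S100a4, 5.56-fold above the mean of the other high-dose mice, S100a6 (2.66-fold) and S100a11 (2.30-fold). S100a1 was 1.03 and S100a3 0.791 times that mean, and S100a10 was lowest of 18, at 0.412 times it. S100a6, S100a11 and S100a10 were chosen after their values were seen.

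Markers of other cells were uneven in high-dose mouse 2. Kupffer cell and macrophage genes were above the mean of the other high-dose mice in 12 of 12, among them Clec4f (2.36-fold), Vsig4 (2.50-fold) and Cd5l (3.07-fold). Of these 12, 9 were highest of 18 in this mouse, against 8.56% of all genes. The summed level of the 12 was 163.9 in this mouse and 108.5 in low-dose mouse 1. These were the highest and second highest of 18, against 32.2 to 98.8 in controls. Monocyte genes were above the mean of the other high-dose mice in 6 of 6 and highest of 18 in 4. Ccr2 was 4.66-fold, Cx3cr1 2.63-fold and Ly6c1 1.92-fold above it. Ly6c1 ranked 5 of 18 in this mouse and 15 in low-dose mouse 1, and Ly6c2 had no probe matched by symbol. The sum of the 6 was 6.64 in high-dose mouse 2 and 4.07 in low-dose mouse 1, against 1.87 to 3.15 in controls. Platelet genes were above the mean of the other high-dose mice in 5 of 6 and highest of 18 in 4. Ppbp was 7.85-fold, Pf4 2.26-fold and Itga2b 1.01-fold that mean. The part of these cells in the members' levels was not tested.

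Red cell genes, which mark blood left in the tissue, went both ways, with 3 of 7 above the mean of the other high-dose mice. Hba-a1, an alpha globin, was the second lowest of 18 in high-dose mouse 2, at 0.517 times the mean of the other high-dose mice, and Alas2 and Slc4a1 were 0.940 and 1.63 times it. The summed level of the 7 measured red cell genes ranked 17 of 18 in this mouse (73.5, against 87.4 to 143.0 in controls) and 5 of 18 in low-dose mouse 1 (133.5). That sum rests mostly on Hba-a1 and Alas2, by far the brightest of the 7 (levels of 5.30 and 4.97 in this mouse). Of the 14 listed, 7, several globins among them, were not measured.

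T and NK cell genes had a summed level of 1.84 in high-dose mouse 2, against 1.32 to 2.21 in controls, with Cd3d 1.05, Cd3e 0.376 and Cd3g 0.775 times the mean of the other high-dose mice. The B and plasma cell genes had a summed level of 12.8 in this mouse, the second highest of 18, against 3.54 to 8.26 in controls and at most 16.7 in the other high-dose mice. Of the 10, 4 were above the mean of the other high-dose mice and 3 were highest of 18. Those 3 were Jchain (17.9-fold), Mzb1 (7.77-fold, chosen after its values were seen) and Cd79b (1.43-fold), while Cd79a was 0.614 times that mean. Endothelial genes were below the mean of the other high-dose mice in 7 of 7 in this mouse, and their sum (17.1) was the lowest of 18. Stab2 was 0.618, Clec4g 0.577 and Lyve1 0.539 times that mean. The size varied, and Vwf, chosen after its values were seen, was 0.981 times that mean and ranked 6 of 18. The 6 hepatocyte genes that no array saturated had a median difference of 0.20, with Ttr 0.988 times that mean, and Alb and Apoa1 were saturated on 18 and 17 arrays.

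Acute phase proteins, which hepatocytes secrete in inflammation, were highest in this mouse in 7 of the 7 that no array saturated, with a median difference of 2.39. In low-dose mouse 1 the median difference of these 7 from its group mates was -0.43. The serum amyloids Saa1, Saa2 and Saa3 were saturated on 6, 6 and 3 arrays, that of high-dose mouse 2 among them, so no fold or rank is given. The other high-dose arrays were saturated for Saa1 and Saa2 in 2 of 5 and for Saa3 in 0 of 5.

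Across the 3 dose comparisons, 0 of the 134 measured genes of these 16 other lists passed the threshold in limma. The smallest adjusted p was 0.16 for low over control, 0.642 for high over control and 0.408 for high over low, and 11, 16 and 5 genes had an unadjusted p under 0.05. The median log2 fold change of high over control was 0.87 for the azurophil list and 0.57 for the specific granule list, and 0.07 and 0.20 without high-dose mouse 2.

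The genes whose levels were most like the mean z-score of S100a8, S100a9 and Ltf over the 18 mice were Jchain (the joining chain of IgA and IgM, r = 0.96), Cd14 (0.95), Slc16a3 (a lactate transporter, 0.94), Tmem176b (0.93), St6gal1 (a sialyltransferase, 0.93), Tnfaip3 (a brake on NF-kB signalling, 0.93), Cxcl1 (0.92) and Steap4 (a metalloreductase, 0.91). All 8 were highest of 18 in high-dose mouse 2, and Jchain was 17.9-fold above the other high-dose mice there. The choice itself favours such genes, since the mean z-score was 3.29 in that mouse and 1.14 in low-dose mouse 1, the next highest. With group means subtracted, Tifa (an adaptor of NF-kB signalling, r = 0.94) took the place of Tnfaip3. These are the top values among all genes and are given as a description, with 18 arrays behind each. Without the 2 highest livers, 1 of these 8, Tmem176b (r = 0.80 over 16 mice), was among the 8 most alike.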

How the data were processed

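Total RNA from 18 livers, each from a separate mouse, was hybridised to 1-colour (Cy3) arrays, 6 per group. Spot intensities are those of Agilent Feature Extraction 9.5.3.1, background-subtracted and not normalised between arrays, per the file headers. The deposited value table holds log2 intensities of 22514 probes by the authors, with medians from 7.91 to 7.94 per array. Its scale and rule of choice are not given in the sources used here. The submitters' processing notes name limma without steps.

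Outlier spots were left out, spots of a probe averaged, and the array's 75th percentile of log2 intensity subtracted. Probes well above background on at least 6 arrays were kept (25439), with the brightest kept probe standing for a gene (17690 genes, 472 with a missing value, which the fit drops). Symbols were updated by transcript accession from a RefSeq gene table of GRCm38.p6 for 23483 probes. Groups were compared with limma 3.58.1 (R 4.3.3), 2-sided, 18 arrays in 1 model, with Benjamini-Hochberg adjustment at 0.05. Camp and Ngp did not pass the filter and were fitted only without it. Bounds ("at least") set the bright mouse against, on each dim array, the higher of its own signal and the lowest signal called above background. Correlations used permutation with scipy 1.17.1. The model was tested on simulated data. Precision is limited by the number of arrays, with a median SE of 0.165 (log2).

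The members and 16 other lists were chosen with earlier results of these data known. Named are the members, the first 3 measured genes of each list as written, any list gene past the threshold and the 8 genes most alike, and other names are marked in the text. Alternatives were other scalings, backgrounds, filters, probe summaries, samples, weights and blocks, the value table, and leaving out mice.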

Additional observations from a re-analysis of the deposited data

Results flagged for a closer look

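Within 4 of the 18 sets of 6 mice (6 probes in 3 groups), 1 mouse lay far from the others, with a gap to its nearest group mate that took more than 0.625 of the range of the group. For normally distributed values, chance alone gives such a gap in about 1 in 20 groups. The 18 sets are not independent, because the 6 probes were read in the same mice. No excess over chance is therefore read from their number. In the high-dose group mouse 2 stood apart for S100a8, where the gap took 0.687 of the range, for Camp, where it took 0.946, and for the Ltf probe A_52_P15388, where it took 0.753. For the same mouse the gap was 0.609 of the range for S100a9 and 0.621 for the other Ltf probe, just short of that limit. In the low-dose group mouse 1 stood apart for Ngp, with a gap of 0.769 of the range. The Camp and Ngp values of the other mice in these groups were at background with few exceptions, so the spread among them is that of background signal. The cause of these gaps was not tested.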

How the results depend on the processing

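The members stayed short of the threshold of 0.05 in 297 of 297 alternative values tested, and the smallest adjusted p was 0.447, but several directions turned. With array weights high over control became -0.13 for S100a8, -0.14 for S100a9 and -0.10 for Ltf, high over low -0.55 for S100a9 and -0.013 for Ltf, and low over control -0.085 for Ltf. With normexp background correction low over control became -0.12 for S100a8 and -0.34 for Ltf, high over low 0.49 for S100a8 and -1.6e-05 for S100a9, and the correlation of S100a9 and Ltf 0.32. High over low of S100a8 was 0.20 in the deposited value table and 0.12 with slide as a block, and low over control of Ltf -0.10 with slide as a block and -0.011 on its other probe. An alternative chosen after seeing the data left out high-dose mouse 2 and low-dose mouse 1. It gave -0.32, -0.27 and -0.45 for S100a8, S100a9 and Ltf in high over control, -0.52 for S100a9 and -0.22 for Ltf in high over low, and -0.22 for Ltf in low over control. Correlations with Ltf became -0.13 for S100a8 and -0.070 for S100a9, and 0.508 and 0.676 with slide means then subtracted. Leaving out 1 mouse at a time moved low over control between 0.52 and 1.08 for S100a8 (0.25 and 0.70 for S100a9, -0.22 and 0.32 for Ltf), high over control between -0.32 and 1.17 (-0.27 and 0.99, -0.45 and 0.71), and high over low between -1.18 and 0.31 (-0.78 and 0.48, -0.51 and 0.64). Genes called for low over control numbered 43, and 8 scaled to the array median, 7 after normexp, 9 with no filter, 70 with detection on all arrays, 15 with the mean of probes, 79 with only the groups compared, 69 with trend and robust eBayes, 143 with array weights, 2 with slide as a block, 16 without both mice and 2 to 73 leaving out 1 mouse. For high over low they numbered 5, and 1 with normexp, 1 with no filter, 11 with every probe alone, 0 with only the groups compared, 13 with array weights, 0 with slide as a block, 0 without both mice and 1 to 9 leaving out 1 mouse. For high over control 0 were called under every alternative run. Mouse numbers shared between groups were not treated as pairs, since the labels tie them to nothing and same-numbered deviations correlated between -0.07 and 0.14. Of the 18 arrays, 10 matched their own number best, where 3 would if best matches fell evenly. Arrays with the same number often shared a slide, such as control mouse 1 and high-dose mouse 1 on slide 2. Number and slide thus cannot be told apart in this count, which comes from the data and not from the design. With the number as a replicate block, 5 genes were called for low over control, 0 for high over control and 0 for high over low, and S100a8 had 0.86, 0.67 and -0.19. S100a8 and Ltf were not tested where detection on all arrays was required, and Ltf, Camp and Ngp were not in the value table. The cause of these changes was not tested, and Camp and Ngp are limited by signals at background.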
